A study of Mus musculus with 6 samples.

Results

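Genes of prostaglandin synthesis and reception and of the IL6 cytokine family were examined in mouse embryonic fibroblasts that lacked or carried exon 2 of Cas (p130Cas, gene symbol Bcar1), a docking protein of integrin adhesions. The set held 10 genes out of the 18193 that the array annotation named. Of these, 9 were listed for what they encode, and Ptgs2 was selected on its spread between the arrays, so its values, differences included, are a description and no test of it is given. A probe set, a group of short probes read as a unit, was available under 8 of the 10 symbols, with 13 probe sets in all. Ptgs1 and Il1rl1 were not analysed here.

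The cells were primary cultures from embryos of 12.5 days post coitum, without heads and inner organs. The strain was labelled B6 for every sample except wild type 1, which has no strain label. They comprised 2 Cas exon 2∆/∆ embryos (homozygous), 2 Cas exon 2+/∆ embryos (heterozygous) and 2 Cas exon 2+/+ embryos (wild type), with 1 Affymetrix array each. All came from intercrosses of heterozygous mice. They were grown in medium with 10% fetal calf serum, and no other agent was named. With 2 embryos a genotype, the number of arrays limits the precision, and a p-value reflects how far single embryos, each with a culture of its own, differ.

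Prostaglandins are made from arachidonic acid, which the cyclooxygenases Ptgs1 (constitutive) and Ptgs2 (inducible, also called COX-2) turn into prostaglandin H2. Ptges then makes prostaglandin E2 and Ptgis makes prostacyclin, and prostaglandin E2 acts through receptors that include Ptger2 and Ptger4, both coupled to cAMP. Il6, Lif and Il11 are cytokines that signal through the shared receptor subunit gp130 to JAK kinases and STAT3, and fibroblasts are known to secrete them together with prostaglandin E2 in inflammation. Il1rl1, the receptor of IL33, belongs to the IL1 receptor family and not to the IL6 family.

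Promoter sequences of Ptgs2, Il6 and Lif are shown because these genes shared their lowest array and their highest pair of arrays, as described below. They are from RefSeq (GRCm38.p6), 300 bases each, ending 50 bases into the transcribed part, 5′ to 3′. Capitals mark every match, on either strand, to the letters of 6 motifs named beneath them, which were chosen with the values of these genes known.
Ptgs2, chr1:150099781-150100080, strand +: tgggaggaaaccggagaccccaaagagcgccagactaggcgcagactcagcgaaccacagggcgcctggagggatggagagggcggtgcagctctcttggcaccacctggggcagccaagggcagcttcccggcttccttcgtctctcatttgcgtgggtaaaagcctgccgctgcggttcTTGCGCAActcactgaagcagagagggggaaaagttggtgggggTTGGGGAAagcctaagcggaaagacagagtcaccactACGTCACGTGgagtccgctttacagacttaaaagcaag
Il6, chr5:30012864-30013163, strand +: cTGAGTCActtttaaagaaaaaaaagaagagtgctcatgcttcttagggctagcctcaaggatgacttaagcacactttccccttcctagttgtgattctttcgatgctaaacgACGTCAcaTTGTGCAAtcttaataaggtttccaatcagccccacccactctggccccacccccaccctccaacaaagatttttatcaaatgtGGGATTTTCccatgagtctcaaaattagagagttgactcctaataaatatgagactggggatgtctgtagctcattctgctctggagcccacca
Lif, chr11:4257318-4257617, strand +: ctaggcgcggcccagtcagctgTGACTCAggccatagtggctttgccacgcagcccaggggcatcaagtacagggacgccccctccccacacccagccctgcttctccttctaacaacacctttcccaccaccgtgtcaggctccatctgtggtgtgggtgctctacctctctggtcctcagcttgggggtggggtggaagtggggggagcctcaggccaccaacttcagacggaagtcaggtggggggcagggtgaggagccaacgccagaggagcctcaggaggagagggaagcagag

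Positions are counted from the start site, which is base 1. The core of the cAMP response element was searched as TGACGT and held by 7.51% of 32851 promoter windows of this length. The NF-kappaB site was written as GGGANTTNC (4.26% of windows) and the C/EBP site as TTNNGNAA (40.7%). For AP-1 the letters were TGANTCA (7.81%), for the E-box CACGTG (7.15%) and for the TATA box TATAAA (13.6%). The Ptgs2 window held the cAMP response element core at bases 13 to 18, on the minus strand, overlapping an E-box at 17 to 22, and C/EBP letters at -69 to -62, on both strands, and at -25 to -18. The Il6 window held the same core at -136 to -131, also on the minus strand, C/EBP letters at -128 to -121, NF-kappaB letters at -44 to -36 and AP-1 letters at -249 to -243. The Lif window held AP-1 letters at -228 to -222. No TATA letters were found in the 3 windows. A match describes the sequence and shows no binding.

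Fibroblast markers were above the filter on dim probe sets for 12 of 12 genes. The filter kept the upper 50% by mean over the 6 arrays and does not show presence on each array. Their summed intensity was lowest in wild type 1, at 60460, against 71242 to 86682 on the other arrays, and their median centred level there was -0.77, against -0.11 to 0.25. For homozygotes against wild type, 3 of the 12 had an unadjusted limma p under 0.05, against 3.8% of all tested probe sets, and 0 passed after adjustment. Heterozygotes against wild type also gave 3 of the 12, against 5.26% of all, with 0 passing. Homozygotes against heterozygotes gave 0 of the 12. Macrophage markers were above the filter for 18 of 22 genes. Their summed intensity over the 22 genes was 18410 and 8912 in homozygotes, 6451 and 6687 in heterozygotes, and 3838 and 8173 in wild type, and the brightest probe set was that of Lyz2, a lysozyme gene. All 18 above the filter were higher in homozygotes than in both other genotypes together (median difference 1.25), and than in each alone. In the first comparison 11 of the 18 had an unadjusted limma p under 0.05, against 2.49% of all tested probe sets, and 0 passed after adjustment. Their median centred level was 0.26 in homozygote 2 and 0.29 in wild type 2. No listed macrophage marker was at 0, but neither was any deposited value, so this does not show that such cells were present. No mast cell marker (0 of 8) and 3 of 8 endothelial markers were above the filter, and Pecam1 lay between 1.80 and 3.47. A score of sex-linked genes (Eif2s3y, Uty and Kdm5d with Xist turned in sign) was 2.94 and 2.52 in homozygotes, -3.01 and -3.14 in heterozygotes, and -1.81 and 2.49 in wild type (log2 units). Genotype and sex-linked expression therefore cannot be told apart between homozygotes and heterozygotes. Within a genotype the score differed widely in the wild-type pair alone, so a fit with it as a covariate rests mainly on that pair. Wild type 1 stood farthest from the other arrays, with a mean of the median absolute log2 differences of 0.35, against 0.26 to 0.32 for the rest. The brighter Bcar1 probe set gave 268 and 324 in homozygotes, 283 and 366 in heterozygotes, and 711 and 309 in wild type. The other Bcar1 probe set gave 145 and 157, 149 and 218, and 304 and 147 in the same order. Whether the probes of either set fall inside exon 2 is unknown here, and they do not check the deletion.

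Ptgs2 had the widest spread of the set, and this spread lay within genotypes. Its deposited intensity was 564 and 674 in homozygotes, 97.2 and 1908 in heterozygotes, and 3866 and 384 in wild type. The homozygous cultures were close to each other and in the middle, while each of the other genotypes held 1 high and 1 low culture. The higher embryo exceeded the lower by 1.19-fold in homozygotes, 19.6-fold in heterozygotes and 10.1-fold in wild type. Over all arrays the range was 39.8-fold, or 5.13 on the normalized log2 scale, the 21st widest of 11373 genes above the filter, whose median range was 0.72. The other Ptgs2 probe set put the 6 arrays in the same order, with 203 and 256 in homozygotes, 42.9 and 431 in heterozygotes, and 1499 and 152 in wild type. In bulk cultures, fewer cells of a type and less RNA per cell cannot be told apart.

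On the normalized log2 scale, Ptgs2 averaged 9.32 ± 0.16 in homozygous cultures, 8.71 ± 2.93 in heterozygous ones and 10.24 ± 2.15 in wild type (SD, n = 2 each). Homozygotes differed from the mean of the other genotypes by -0.16 (SE 1.27). This value was 0.60 without wild type 1, 0.88 without heterozygote 2 and 2.85 (SE 1.94) with the sex-linked score as a covariate.

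**Figure D1:**
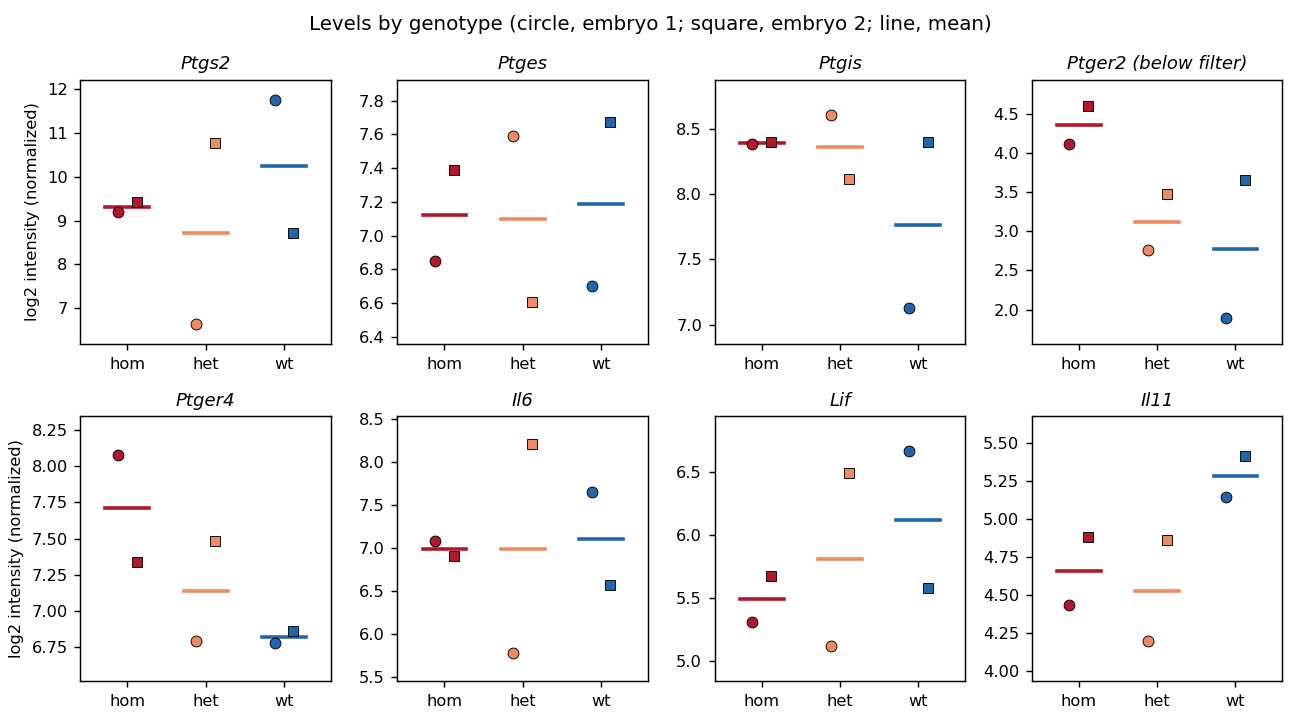
Normalized log2 intensity of the 8 measured genes in each embryo, by genotype (hom, homozygous; het, heterozygous; wt, wild type), with circles for embryo 1, squares for embryo 2 and a line at the mean of 2. Each panel has its own vertical range. Ptgs2, Il6 and Lif have their extremes in heterozygous and wild-type cultures, and Ptger2 is higher in both homozygous cultures than in the other 4.

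Among the other synthases, Ptges ran against Ptgs2 within the heterozygous and the wild-type pair. Its main probe set read 118 and 156 in homozygotes, 188 and 111 in heterozygotes, and 101 and 184 in wild type. Thus heterozygote 2 and wild type 1, the cultures highest in Ptgs2, were the lowest in Ptges. The genotype means differed by less than the spread of embryos (difference -0.02, SE 0.40, interval -0.998 to 0.953, limma adjusted p = 1). With the sex-linked score as a covariate the difference was -0.92 (SE 0.65). The remaining Ptges probe sets gave differences of -0.28 (SE 0.27) and 0.51 (SE 0.36), and so had opposite signs. They read 35.7 and 30.4, and 51.9 and 35.6, in homozygotes, 63.4 and 44.95, and 43.6 and 21.2, in heterozygotes, and 26.2 and 37.1, and 24.5 and 35.5, in wild type.

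Ptgis, the prostacyclin synthase, was even across 5 arrays and low in wild type 1. It read 331 and 317 in homozygotes, 375 and 318 in heterozygotes, and 138 and 306 in wild type. Homozygotes overlapped the other genotypes, and the difference was 0.33 (SE 0.38, interval -0.58 to 1.24, limma adjusted p = 1). It was 0.011 without wild type 1, the array lowest in fibroblast markers, 0.65 without wild type 2, and -0.88 (SE 0.42) with the sex-linked score as a covariate.

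Of the 4 prostaglandin E2 receptor genes, Ptger4 was bright enough to be tested and did not pass. It read 269 and 151 in homozygotes, 109 and 205 in heterozygotes, and 107 and 104 in wild type. Homozygote 1 was the highest array, but heterozygote 2 lay above homozygote 2, so the genotypes overlapped. Ptger4 differed by 0.73 from the other genotypes together (SE 0.30, interval -0.01 to 1.46, limma adjusted p = 1) and by 0.89 from wild type (SE 0.35, limma adjusted p = 0.973). Without homozygote 1 the first difference was 0.36. A dimmer Ptger4 probe set, under the filter, read 22.02 and 7.34 in homozygotes, 9.80 and 22.6 in heterozygotes, and 6.74 and 11.8 in wild type, with a difference of 0.22 (SE 0.50) and of -0.03 from heterozygotes alone.

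Ptger2 was dim and lay under the filter, so it was not among the tests. It read 16.4 and 20.2 in homozygotes, 5.46 and 10.1 in heterozygotes, and 2.07 and 10.2 in wild type. Both homozygous cultures were above the other 4, an arrangement found for 744 of 18193 named genes (4.09%), and the opposite for 899 (4.94%). Among the 8 measured genes the first held for Ptger2 alone and the opposite for 0. The Ptger2 difference was 1.41 (SE 0.57) on the log2 scale, but -0.18 (SE 0.71) with the sex-linked score as a covariate. Centred on each gene's mean, the 18 macrophage markers above the filter had a median of 1.23 and 0.26 in homozygotes, -0.29 and -0.50 in heterozygotes, and -1.15 and 0.29 in wild type. Homozygote 1 was thus highest both in Ptger4 and in these markers, and wild type 1 was lowest in Ptger2, in Ptger4 by normalized level and in the markers. Other arrays did not match. Ptger2 was highest in homozygote 2, where the markers were at 0.26. Ptger4 was second highest in heterozygote 2, where the markers were at -0.50. The part of macrophages in the receptor values was not tested. Ptger1 and Ptger3, the remaining receptors, were also under the filter. Ptger1 read 8.89 and 0.276 in homozygotes, 5.64 and 0.464 in heterozygotes, and 4.97 and 0.527 in wild type (difference 0.23, SE 0.88). Ptger3 read 5.14 and 9.71 in homozygotes, 10.6 and 10.4 in heterozygotes, and 4.39 and 1.51 in wild type (0.34, SE 0.41), and its difference from heterozygotes alone was -0.33. In the main fit these receptor probe sets all had positive differences from both genotypes together. From wild type alone they were positive too, at 1.59 for Ptger2, 0.89 and 0.47 for Ptger4, 0.24 for Ptger1 and 1.02 for Ptger3. From heterozygotes alone, the dimmer Ptger4 probe set and Ptger3 had negative differences.

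**Figure D2:**
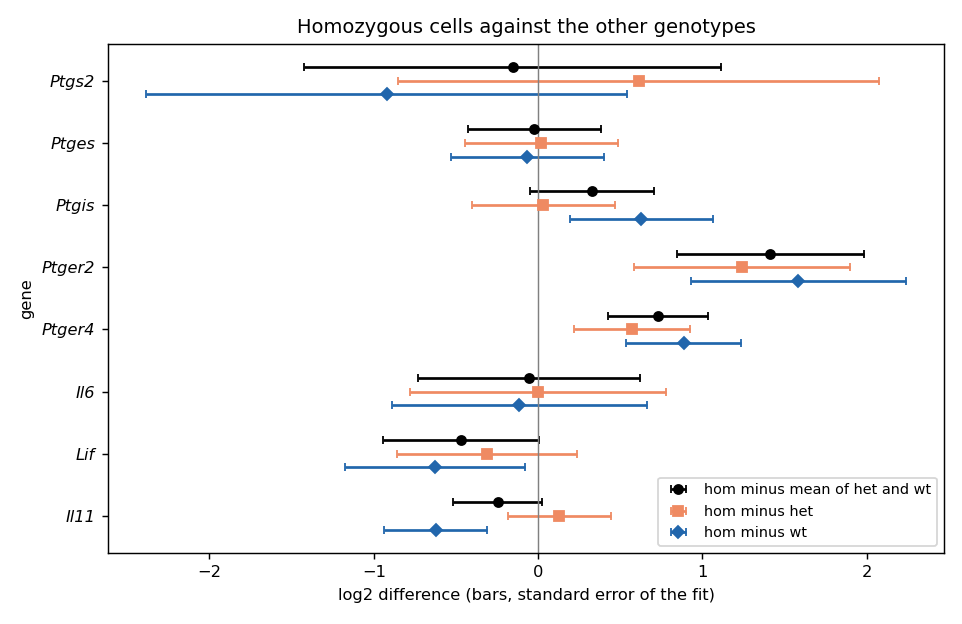
Log2 difference of homozygous cells from the mean of the other genotypes (circles), from heterozygous cells (squares) and from wild-type cells (diamonds) for each gene, with bars for the standard error of the fit on 6 arrays. The 3 comparisons share the homozygous arrays. Ptgs2 has the widest bars, and Ptger2 and Ptger4 are the genes for which all 3 points and their bars lie above 0.

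The IL6 family cytokines Il6 and Lif followed the same cultures as Ptgs2. Il6, the cytokine of the acute phase response, read 138 and 110 in homozygotes, 53.5 and 339 in heterozygotes, and 203 and 84.4 in wild type. The homozygous cultures again lay together in the middle, and the heterozygous pair differed by 6.34-fold. The log2 range of Il6, 2.43, was exceeded by 3.28% of the genes above the filter. Genotype means were 6.99 ± 0.12 for homozygous cultures, 6.99 ± 1.72 for heterozygous ones and 7.11 ± 0.76 for wild type (SD, n = 2 each). The difference of homozygotes from the others was -0.06 (SE 0.67, interval -1.69 to 1.58, limma adjusted p = 1), and it was 0.55 without heterozygote 2.

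Lif, a cytokine best known for maintaining mouse embryonic stem cells, read 41.0 and 44.7 in homozygotes, 33.5 and 103 in heterozygotes, and 98.3 and 41.9 in wild type. Heterozygote 2 and wild type 1 stood above the other 4 cultures, which lay close together. The difference was -0.47 (SE 0.47, interval -1.62 to 0.68, limma adjusted p = 1). Leaving out 1 array gave -0.82 (without heterozygote 1) to -0.13 (without heterozygote 2), and -0.20 without wild type 1. The difference was 0.63 with the sex-linked score as a covariate. The second Lif probe set was near background, at 1.03 and 1.23 in homozygotes, 1.36 and 10.8 in heterozygotes, and 2.72 and 2.24 in wild type.

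Il11, a gp130 cytokine of mesenchymal cells, did not share this order. It read 20.9 and 24.9 in homozygotes, 17.2 and 30.6 in heterozygotes, and 32.3 and 37.5 in wild type. Both wild-type cultures lay above the other 4, as they did for 7.96% of all named genes, and this held for 1 of the 8 measured genes. Heterozygotes differed from wild type by -0.75 (SE 0.31, limma adjusted p = 0.838), and homozygotes from both genotypes together by -0.25 (SE 0.27, interval -0.90 to 0.41, limma adjusted p = 1).

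In all of Ptgs2, Il6 and Lif, heterozygote 1 was the lowest culture by normalized level, and heterozygote 2 and wild type 1 were the highest pair. This order held for 3 of the 7 measured genes above the filter, and for 388 of all 11373 such genes (3.41%). It was noticed in these data, and Ptgs2 was chosen by its spread, so the order describes the 6 cultures. It crosses genotype, since the lowest culture and a culture of the highest pair were both heterozygous. Schwann and neural crest markers, measured for 4 of 6 genes with 2 above the filter, summed to 50.3 and 59.99 in homozygotes, 98.7 and 174 in heterozygotes, and 196 and 89.8 in wild type. These sums of deposited intensities were thus highest in the same pair of cultures, but lowest in the homozygotes and not in heterozygote 1. Sums of the endothelial markers were highest in wild type 1 (209) but lowest in heterozygote 2 (118). The 7 epithelial markers, 3 of them above the filter, had sums highest in heterozygote 2 and wild type 1. They were 184 and 118 in homozygotes, 152 and 190 in heterozygotes, and 229 and 134 in wild type. By normalized level the pair did not hold for the 3 epithelial genes above the filter. Their median centred level was 0.46 in wild type 1 and -0.01 in heterozygote 2, against 0.24 in homozygote 1 and 0.18 in wild type 2. Every deposited value was above 0, so values above 0 do not show that these cells were present. The part of these cells in the cytokine and Ptgs2 values was not tested.

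**Figure D3:**
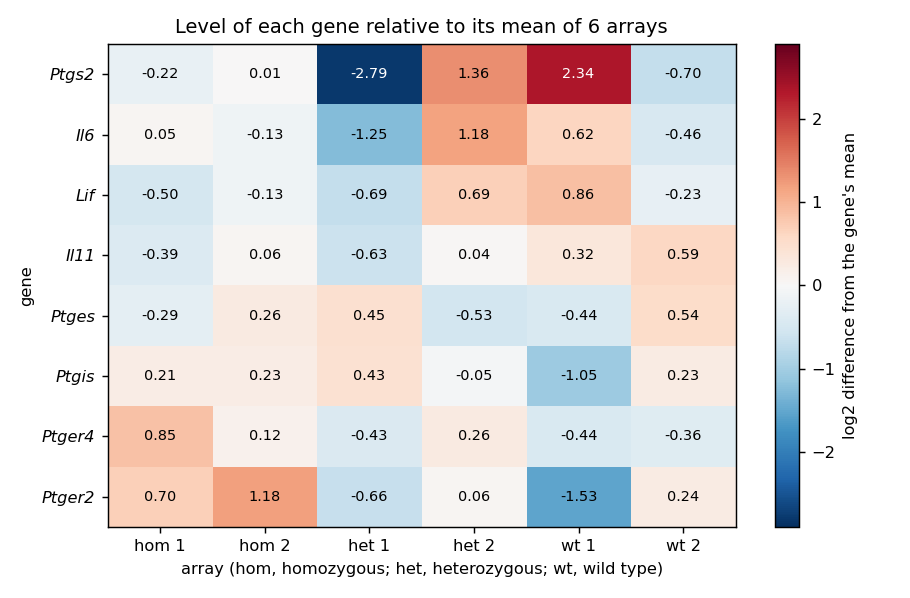
Log2 level of each gene in each array relative to that gene's mean of 6 arrays, in colour and as a number. Ptgs2, Il6 and Lif are lowest in heterozygote 1 and highest in heterozygote 2 or wild type 1, Ptges has the opposite signs in those 3 arrays, and Ptger4 and Ptger2 are above their means in both homozygotes.

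Across the whole table, limma called 0 of 22519 probe sets (0%) at an adjusted p under 0.05 in each of the 4 comparisons, and 0 of the 6 members above the filter other than Ptgs2. The comparisons were homozygotes against both other genotypes, against wild type and against heterozygotes, and heterozygotes against wild type. At an unadjusted p under 0.05 there were 560, 855, 488 and 1185 probe sets in that order. Among these 6 members there were 0, 1, 0 and 0, Ptger4 being the gene against wild type. Of the 8 measured members, 3 had a positive and 5 a negative difference in the first comparison, with a median of -0.04. For the 7 above the filter, Ptgs2 included, 2 were positive and 5 negative, with a median of -0.06. Of the 11373 genes above the filter, 47.4% had a positive difference, and their median was -0.01. The comparisons share arrays, so their values are not independent.

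The genes most like a member over the 6 arrays were found by the root mean square (RMS) difference after centring, for members with a log2 range over 2. For Ptgs2 these were Csrnp1, a nuclear protein, with an RMS difference of 0.62, the gap junction gene Gjb2 (0.69) and Ankrd1, an ankyrin repeat gene of muscle (0.74), where Ptgs2 itself varied by 1.61 about its mean. Csrnp1 read 68.8 and 61.3 in homozygotes, 5.81 and 87.6 in heterozygotes, and 177 and 54.3 in wild type. Ankrd1 read 148 and 194 in homozygotes, 25.9 and 207 in heterozygotes, and 2149 and 144 in wild type. Both were lowest in heterozygote 1 and highest in wild type 1, as Ptgs2 was. For Il6 the nearest were Pard6b (0.24), the transcription factor Nfil3 (0.33) and the lipid transporter Mfsd2a (0.34), against 0.77 for Il6 itself. For Ptger2 they were the glypican Gpc3 (0.08), the scavenger receptor-like gene Fcrls (0.28) and the chemokine Ccl7 (0.30), against 0.89.

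**Figure D4:**
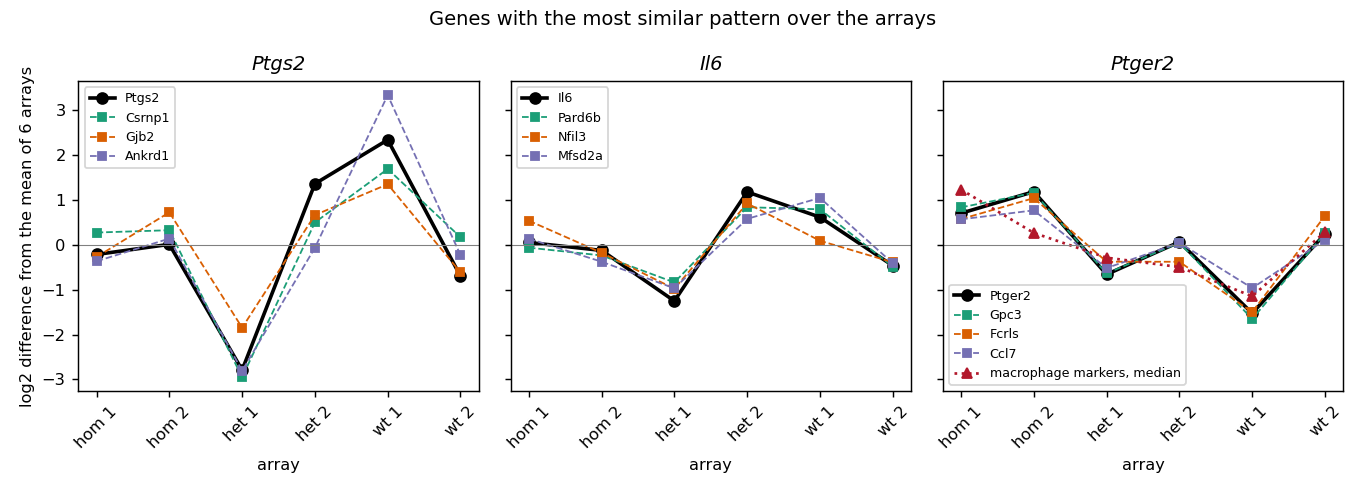
Log2 level relative to the mean of 6 arrays for Ptgs2, Il6 and Ptger2 (black) and the 3 genes nearest to each (dashed), by array, with the median of the 18 macrophage markers (dotted) beside Ptger2. The genes were picked for this likeness, and the dotted line is highest in homozygote 1 and lowest in wild type 1.

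Other genes of prostaglandin metabolism were measured for 25 of 28 listed, 19 of them above the filter. Of these 19, 9 had a positive and 10 a negative difference of homozygotes from both other genotypes, with a median of -0.02, and 0 passed the test. Pla2g4a, the phospholipase that releases arachidonic acid, read 750 and 1527 in homozygotes, 682 and 1485 in heterozygotes, and 1972 and 865 in wild type (difference -0.02, SE 0.42, limma adjusted p = 1). Heterozygote 2 and wild type 1 were again above their partner of the same genotype, and homozygote 2 was above homozygote 1. Hpgd, which inactivates prostaglandins, read 130 and 58.1 in homozygotes, 127 and 82.1 in heterozygotes, and 27.0 and 72.8 in wild type, lowest in wild type 1. The prostacyclin receptor Ptgir differed by 0.49 (SE 0.24), with 39.8 and 47.2 in homozygotes, 42.3 and 34.5 in heterozygotes, and 27.2 and 22.7 in wild type. Ptgfr, the receptor of prostaglandin F2alpha, differed by 0.03 (SE 0.34). Pla2g10, a secreted phospholipase, had the widest range and differed by -1.22 (SE 0.57), from 6.42 and 26.0 in homozygotes, 32.6 and 26.0 in heterozygotes, and 56.3 and 28.8 in wild type. Next in range were Ptgdr and Ptgds, both under the filter, with differences of -0.18 (SE 0.83) and -0.41 (SE 0.88).

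Other genes of IL6 family signalling were measured for 19 of 25 listed, 14 of them above the filter. Of these, 5 had a positive and 9 a negative difference, with a median of -0.01, and 0 passed the test. Il6st, which encodes gp130, read 1778 and 1449 in homozygotes, 1839 and 2086 in heterozygotes, and 732 and 1450 in wild type (difference 0.26, SE 0.35, limma adjusted p = 1). Lifr, the Lif receptor, read 556 and 275 in homozygotes, 426 and 400 in heterozygotes, and 138 and 274 in wild type (0.53, SE 0.42). Osmr, the oncostatin M receptor, likewise had its lowest value, 1327, in wild type 1 (0.12, SE 0.27). Wild type 1, high in Ptgs2, Il6 and Lif, was thus the lowest culture for these 3 receptor subunits, and its fibroblast markers were lowest too. Il6ra, the receptor subunit that binds Il6, was instead highest in wild type 1, with 27.7 and 29.1 in homozygotes, 13.3 and 39.9 in heterozygotes, and 40.3 and 34.2 in wild type (-0.01, SE 0.39). Il31ra, under the filter, was second highest there, with 31.3 and 4.93 in homozygotes, 4.17 and 2.16 in heterozygotes, and 14.2 and 3.53 in wild type. Socs3, a feedback inhibitor induced by STAT3, read 538 and 394 in homozygotes, 454 and 614 in heterozygotes, and 267 and 761 in wild type, and so was lowest in that culture too (-0.01, SE 0.46). Stat3 read 1099 and 1120 in homozygotes, 1110 and 1725 in heterozygotes, and 1141 and 1033 in wild type (-0.06, SE 0.21), with heterozygote 2 highest as for Il6. The widest ranges were in Ebi3, Il31ra and Osm, all under the filter, and Ebi3 read 38.3 and 38.9 in homozygotes, 1.53 and 10.99 in heterozygotes, and 1.17 and 40.4 in wild type.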

How the data were processed

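RNA of 6 cultures, 2 µg each per the labels, was measured on Affymetrix arrays. The deposited values are linear probe set intensities (45101 per array, 64 of them controls). Which scanner software, probe summary and scaling were used is unknown here. The scale was read as linear because all values were above 0 and reached 17154. Values were converted to log2(intensity + 1.78), the pseudocount being the 10th percentile of all intensities, and quantile normalized, since array medians spanned 0.29. The pseudocount shrinks the differences of dim genes. The upper 50% of non-control probe sets by mean (at least 4.57) were tested with limma 3.58.1 in R 4.3.3 (lmFit, eBayes, 3 residual and 3.28 prior degrees of freedom), all 6 arrays in 1 fit, two-sided, with Benjamini-Hochberg adjustment over 22519 probe sets. The fit was tested on simulated data. Members under the filter have the SE of a fit without it.

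Intensities given per array are as deposited, and differences, means, SDs and orders are on the normalized log2 scale. Symbols came from a platform annotation, updated through Entrez identifiers, and only probe sets with 1 symbol were named. A gene is described by its probe set with the highest mean. Levels of different probe sets are not comparable. Members and lists were chosen with earlier results of these data known. From each pathway list, fixed signalling genes and the 3 widest in range were named, and for each member with a log2 range over 2 the 3 nearest genes. Alternatives covered normalization, pseudocount, filter, probe set choice, prior trend, a sex-linked covariate, a replicate block and each array left out.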

Additional observations from a re-analysis of the deposited data

How the results depend on the processing

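No member above the filter other than Ptgs2, for which no test is given, passed under any alternative. Counts of probe sets called, 0 in each comparison, ranged with 1 array left out from 0 to 2 for homozygotes against both genotypes (2 without wild type 2), from 0 to 2 against heterozygotes (2 without wild type 1 or wild type 2), from 0 to 1 for heterozygotes against wild type (1 without wild type 1), and stayed at 0 against wild type. None of these calls was a member, and the genes with a symbol were Eif2s3y each time, named after its values were seen. The number of members with a positive difference, 3 of 8, ranged from 4 to 5 with 1 array left out, 5 without heterozygote 2 or wild type 1.

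Several differences changed sign, and the cause was not tested. With the sex-linked covariate, Ptgs2 was at 2.85 (SE 1.94), Il6 at 1.01 (SE 1.19), Lif at 0.63 (SE 0.74) and Ptgis at -0.88 (SE 0.42). Ptges kept its sign at -0.92, and Ptger2, with no test, moved to -0.18. These covariate values rest mainly on wild type 1 against wild type 2, with scores of -1.81 and 2.49. With 1 array left out, Ptgs2 ranged from -1.19 to 0.88, Il6 from -0.66 to 0.55, Ptges from -0.29 to 0.25, Ptgis from 0.011 to 0.65 and Lif from -0.82 to -0.13. Without wild type 1, Ptgs2 was at 0.60 and Il6 at 0.21, and without heterozygote 2 at 0.88 and 0.55. Il6 was at 0.03 without homozygote 2. Ptges, at -0.02, was at 0.072 with averaged probe sets, 0.25 without homozygote 1, 0.22 without heterozygote 1 and 0.22 without wild type 2. Ptger4 kept its sign under all 14 alternatives (0.36 to 1.10), as did Il11 (-0.47 to -0.02) for homozygotes against both genotypes. Alternatives for Ptger4 against wild type and Il11 between heterozygotes and wild type were chosen after seeing the data and changed no sign.

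The replicate block left the calls at 0 and the differences as they were (Ptgs2 at -0.16), since each genotype holds both numbers. Same-numbered arrays did not deviate together, with correlations of -0.14, -0.14 and -0.36. These values, from 2 arrays a genotype, show no pairing by number. Whether embryos shared a litter, batch or handling order was not tested. Dim probe sets, such as that of Ptger2, limit what can be read.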

Other observations

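Among genes of the CREB response, which follows cAMP and other signals, Nr4a1 had the widest range of those above the filter. Nr4a1, an orphan nuclear receptor induced within minutes of a stimulus, read 809 and 108 in homozygotes, 104 and 1030 in heterozygotes, and 810 and 99.8 in wild type. Within a genotype the higher culture exceeded the lower by 7.52-fold in homozygotes, 9.95-fold in heterozygotes and 8.11-fold in wild type, while the difference of homozygotes from the others was 0.08 (SE 1.25, limma adjusted p = 1). Dusp1, a MAP kinase phosphatase named after its values were seen, read 694 and 354 in homozygotes, 290 and 809 in heterozygotes, and 1427 and 308 in wild type. In heterozygotes and wild type the higher culture of both genes was the one higher in Ptgs2, but in homozygotes Ptgs2 was nearly even. Other genes of the list, chosen after their values were seen, varied less within a genotype, as Pde4d in wild type (126 and 137) and Pde4b in homozygotes (127 and 154). Sik1 and Nr4a3, under the filter, differed by -1.11 (SE 0.47) and -1.63 (SE 0.41). Of the 8 CREB genes above the filter 3 had a positive and 5 a negative difference (median -0.13), and 0 passed the test.

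The IL1 and IL33 receptor system had 13 genes above the filter, 7 with a positive and 6 with a negative difference (median 0.06), and 0 passed. Il1r1, the signalling IL1 receptor, read 305 and 71.5 in homozygotes, 160 and 233 in heterozygotes, and 21.3 and 78.1 in wild type. Il1rn, the IL1 receptor antagonist, read 1019 and 197 in homozygotes, 1058 and 1513 in heterozygotes, and 153 and 811 in wild type. Il33, the ligand of Il1rl1, read 66.8 and 20.8 in homozygotes, 77.6 and 127 in heterozygotes, and 20.7 and 52.1 in wild type. All 3 were lowest in wild type 1, the culture highest in Ptgs2, and next lowest in homozygote 2. Il18rap and Irak2, also above the filter and named after their values were seen, had the extremes of Ptgs2. Both were lowest in heterozygote 1 (14.7 and 137) and highest in wild type 1 (79.4 and 516). The shared subunit Il1rap varied less, from 114 to 160, and Sigirr was under the filter (difference -0.82, SE 1.14).

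Of 13 NF-kappaB genes above the filter, 6 had a positive and 7 a negative difference (median -0.02), and of 9 STAT3 targets 7 and 2 (median 0.12), with 0 passing in either list. Nfkbiz, a nuclear cofactor of NF-kappaB at Il6, read 599 and 333 in homozygotes, 236 and 1111 in heterozygotes, and 729 and 529 in wild type, again lowest in heterozygote 1 and highest in heterozygote 2. Bcl3 and Nfkbie differed by 0.27 (SE 0.45) and 0.17 (SE 0.38). Myc read 210 and 222 in homozygotes, 135 and 355 in heterozygotes, and 511 and 187 in wild type, with the same lowest culture and the same highest pair as Ptgs2. The lists as a whole did not share this order. Their median centred levels were lowest in wild type 1, at -0.27 for the NF-kappaB genes and -0.29 for the STAT3 targets. In heterozygote 1 these medians were 0.01 and -0.17. Lbp differed by 0.68 (SE 0.66), and Fgl1, under the filter, by -0.60 (SE 1.07).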
